A study of Mus musculus with 34 samples.

Results

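Sgk1 is a kinase gene switched on by glucocorticoids. Its transcripts were followed together with those of 6 genes around it in the control of ion and water transport: the sister kinase Sgk3, the ubiquitin ligases Nedd4l and Nedd4, the kinase substrate Ndrg1, the sodium pump subunit Atp1b1 and the water channel Aqp5. The 7 genes were taken by symbol and were 7 of the 25124 genes in each of the 5 tables. All 7 passed the filter on low values in all 5 lines. The cells were C127 mouse cells, labelled as adenocarcinoma, which lacked their own glucocorticoid receptor (GR) after a knockout and expressed mouse GR fused to GFP. That receptor was WT, or carried P631A, W718E or P643A, or both W718S and Y722S. RNA was taken with vehicle or after the synthetic glucocorticoid dexamethasone (Dex) at 100 nM for 2 h, and all cells were held in charcoal-stripped serum beforehand. There were 34 libraries in 10 groups: 3 libraries in each group of WT, P631A, W718E and P643A, and 5 in each group of W718S/Y722S. No clone is named in the labels, so the effect of a substitution and that of its cell line cannot be told apart, and no label says whether replicates were separate cultures. The p-values therefore measure the spread between these libraries, which may be technical.

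SGK1 is a serine/threonine kinase whose amount is set mainly by transcription, and glucocorticoid and mineralocorticoid hormones raise it within hours. The kinases PDK1 and mTORC2 then activate the protein. In kidney and other epithelia, active SGK1 phosphorylates the ligase NEDD4L, which then releases the epithelial sodium channel ENaC, so that more channel stays in the membrane. NDRG1 is a substrate whose phosphorylation is used as a readout of SGK activity. The Na,K-ATPase, with a catalytic alpha and a supporting beta subunit, pumps out the sodium that enters, and aquaporins carry water. Only RNA was measured here, and neither protein nor phosphorylation was.

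The libraries held 24 to 43.1 M total reads (median 32.2 M), with 16.5 to 31.5 M in exons. Of the exon reads, Rn45s, the precursor of ribosomal RNA, held 9.95 to 11.3% in WT and 13.8 to 18.3% in the mutant lines. Transcripts of the receptor gene Nr3c1 lay between 5020 and 7145 normalised reads in all libraries, and the counts do not separate the introduced receptor from the endogenous locus. Markers of an epithelial identity were low. Epcam lay between 0 and 2.1 reads and the 8 epithelial markers summed to 70.1 to 160.0. The 6 mesenchymal or fibroblast markers summed to 120573.0 to 159807.1, but not all were high. Vim lay at 57677.4 to 81359.0, Col1a2 at 38576.8 to 74322.4 and Pdgfrb at 2717.3 to 6440.1. Pdgfra lay at 287.8 to 634.6, Col1a1 at 89.4 to 252.9 and Dcn at 0 to 9.75. The 4 leukocyte markers summed to 388.6 to 467.6 in WT and 127.8 to 223.1 in the mutants, although Ptprc reached only 5.8. The 2 endothelial markers summed to 214.7 to 283.6 in WT and 61.1 to 110.0 in the mutants, with Pecam1 at most 7.95. WT thus stood apart from the mutants in these sums and in Rn45s with either treatment. Replicates 2 and 3 of WT Dex differed by little more than sampling noise, as did replicates 2 and 3 of both W718S/Y722S groups and replicates 4 and 5 of W718S/Y722S Dex. Replicate 1 of W718S/Y722S Dex stood apart from the rest of its group, by the mean chi-square per gene between libraries. That was 10 to 12.8 against each other library, and 1.3 to 3.33 among the others. Replicate 1 was also the furthest in P631A Dex (7.05 and 11.3, against 3.07) and in WT Dex (5.91 and 5.59, against 1.37). In W718E, replicates 2 and 3 were the furthest pair in both groups, at 8.84 with vehicle and 7.97 with Dex. The other pairs of that line lay at 3.54 to 4.94. The called changes of the 7 genes in WT and W718S/Y722S are also given without replicate 1 of W718S/Y722S Dex or with the like libraries summed.

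Sgk1, read here as transcript NM_011361, lies on mouse chromosome 10 (mm10, chr10:21994666-21999902, plus strand), with 2441 exonic bases. The sequences shown are the 250 bases before each of a pair of its annotated starts, because the first holds the only full copy of the GR palindrome found in the windows of Sgk1, Nedd4, Atp1b1 and Aqp5, the members with a window in the table searched. They are the plus strand of GRCm38.p6 from RefSeq, 5′ to 3′, with the palindrome in capitals.
Sgk1, chr10:21993640-21993889: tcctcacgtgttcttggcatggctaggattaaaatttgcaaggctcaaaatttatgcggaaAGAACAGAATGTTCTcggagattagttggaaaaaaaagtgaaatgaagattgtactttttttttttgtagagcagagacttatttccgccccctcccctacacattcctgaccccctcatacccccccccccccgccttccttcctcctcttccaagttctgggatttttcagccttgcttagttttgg
Sgk1, chr10:21994416-21994665: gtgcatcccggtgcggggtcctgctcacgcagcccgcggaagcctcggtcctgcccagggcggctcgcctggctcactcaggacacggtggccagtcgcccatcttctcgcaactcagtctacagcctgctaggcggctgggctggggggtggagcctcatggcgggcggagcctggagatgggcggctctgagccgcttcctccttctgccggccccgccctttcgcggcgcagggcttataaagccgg
The first window ends at a start that lies 776 bases before the start of the counted transcript, and the second ends at the counted start. The capitals mark chr10:21993701-21993715, which is 174 bases before its own start and 950 bases before the counted start. The motif searched was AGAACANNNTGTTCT, which reads the same on both strands and is made of the hexamer AGAACA and its reverse complement. It was in 3 of 32851 windows of this length, or 0.00913%, while the hexamer on either strand was in 16.1%. Of the 6 windows of Sgk1, 1 held the palindrome and 3 the hexamer. Of the 2 windows of Nedd4, 1 held the hexamer, and the windows of Atp1b1 and Aqp5 held neither. A match describes letters only. Binding of the receptor was not measured.

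Sgk1 rose with Dex in all 5 lines, by 15.4-fold in WT and by 2.13-fold to 3.7-fold in the mutants. Values are read counts normalised within the table of each line, given for the replicates in order, with mean ± SD. The change is the log2 difference ± SE from limma, and a gene was called at an adjusted p under 0.05 over all genes tested in that line (Benjamini-Hochberg). In WT the vehicle libraries had 946.0, 926.9 and 920.5 (931.1 ± 13.2, n = 3) and the Dex libraries 14030.3, 14692.4 and 14400.5 (14374.4 ± 331.8, n = 3). That is a log2 change of 3.95 ± 0.03 (adjusted p = 1.5e-23), the lowest p of 12695 genes and the 5th highest change. The lowest Dex library of WT lay far above the highest vehicle library. Groups that do not overlap, in either direction, were found in 21.3% of the tested genes in WT and 19.3% in P643A. They were found in 11% in P631A, 11.7% in W718E and 6.29% in W718S/Y722S. Groups of 3 libraries separate by chance more readily than groups of 5, so the share in W718S/Y722S cannot be set against those of the other lines.

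In P631A, Sgk1 was 1947.2, 2088.7 and 2153.3 with vehicle (2063.1 ± 105.4, n = 3) and 5270.2, 4079.8 and 3850.8 with Dex (4400.3 ± 762.0, n = 3). Dex thus raised it by a log2 change of 1.08 ± 0.09 (adjusted p = 3.65e-05). All 3 Dex libraries were above all vehicle libraries, with replicate 1 the highest. Leaving out 1 library at a time, the log2 change ranged from 0.94 to 1.17 and stayed called. In W718E, the vehicle libraries had 1415.4, 1460.5 and 1398.2 (1424.7 ± 32.2, n = 3) and the Dex libraries 3943.5, 4287.1 and 3237.3 (3822.7 ± 535.2, n = 3). The rise was 2.68-fold, a log2 change of 1.41 ± 0.08 (adjusted p = 1.78e-06). The groups did not overlap, and Dex replicate 3 was the lowest. In these 2 lines the spread of Sgk1 within groups, 0.178 and 0.149 (SD of log2 values), was above the median of genes with a mean of at least 100 reads (0.0681 and 0.0633). It was also above the median in W718S/Y722S (0.0979 against 0.0696), and below it in WT (0.0277 against 0.0527) and P643A (0.0301 against 0.0512).

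In P643A, the vehicle libraries had 2837.2, 2959.4 and 2799.0 (2865.2 ± 83.8, n = 3) and the Dex libraries 10540.7, 10651.3 and 10577.6 (10589.9 ± 56.3, n = 3). The log2 change was 1.89 ± 0.03 (adjusted p = 9.56e-26), with no overlap and little spread in either group. In W718S/Y722S, the vehicle libraries had 2179.4, 2290.9, 2364.9, 2347.5 and 2264.8 (2289.5 ± 73.8, n = 5) and the Dex libraries 5857.1, 7243.1, 7358.1, 6884.7 and 6775.7 (6823.7 ± 592.0, n = 5). The rise was 2.98-fold, a log2 change of 1.57 ± 0.05 (adjusted p = 2.81e-13). Dex replicate 1, the library that stood apart, was the lowest of the treated libraries and still above every vehicle library. Without it the log2 change was 1.63 ± 0.03, and with like libraries summed it was 1.54 ± 0.06. In WT the summed value was 3.94 ± 0.03.

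**Figure D1:**
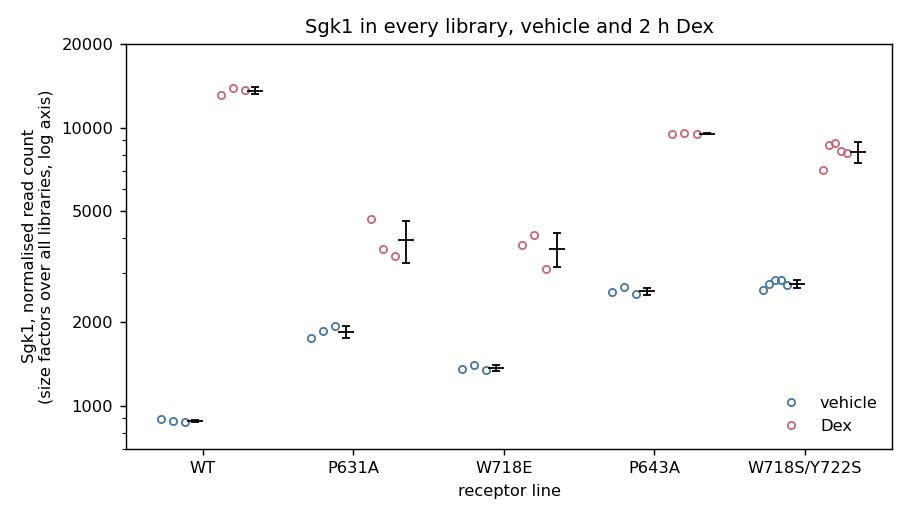
Sgk1 in each of the 34 libraries, as read counts normalised over all libraries on a log axis, by receptor line. Open circles are libraries with vehicle or Dex, and black bars are the mean ± SD of each group. The Dex libraries of WT lie at 13151.1 to 13933.9, above those of every mutant, while its vehicle libraries, at 873.8 to 892.3, lie below those of every mutant.

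Among the 7 genes, Sgk1 and Nedd4l were called higher and Aqp5 lower in WT, where 6.71% of the tested genes were called. In P631A and in W718E, Sgk1 alone was called, against 0.219% and 0.512% of the tested genes. In P643A, Sgk1 was called higher and Aqp5 and Ndrg1 lower, against 4.61% of the tested genes. The same 3 genes were called in the same directions in W718S/Y722S, where 4.67% of the tested genes were called. The median log2 change of the 7 genes lay between -0.03 and 0.01 in the 5 lines, and that of all tested genes between -0.0019 and 0.0013. In the authors' deposited table the same members were called in 4 lines, and in WT all of these but Nedd4l. The log2 changes of the 7 genes in the authors' deposited table differed from those here by at most 0.0133.

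**Figure D2:**
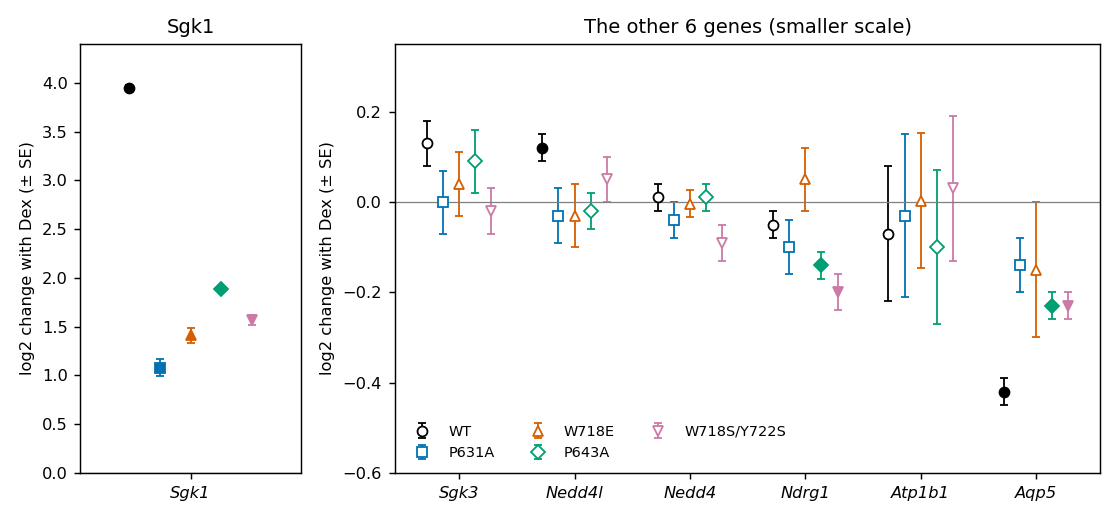
Log2 change with Dex ± SE of each gene in each line, with Sgk1 on a scale of its own at left and the other 6 genes on a smaller scale at right. Filled symbols were called at an adjusted p under 0.05. Sgk1 is called in all 5 lines, Aqp5 in WT, P643A and W718S/Y722S, Ndrg1 in P643A and W718S/Y722S, and Nedd4l in WT.

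The response of Sgk1 was compared between all 10 pairs of lines, as the difference of the log2 changes in limma over 4 group means, with p adjusted over all genes tested in each pair. It was smaller than in WT in each of the 4 mutant lines. P631A differed from WT by -2.87 ± 0.11 (95% interval -3.09 to -2.65, adjusted p = 1.54e-12), in a comparison that called 1.96% of the tested genes. W718E differed by -2.53 ± 0.09 (adjusted p = 1.96e-12), against 1.79% of the tested genes called. P643A differed by -2.06 ± 0.04 (adjusted p = 1.19e-21), with 1.56% called. W718S/Y722S differed by -2.38 ± 0.07 (adjusted p = 1.17e-16), with 1.74% called, and by -2.32 ± 0.04 without its Dex replicate 1. With like libraries summed, the 4 differences were -2.86 ± 0.12, -2.53 ± 0.10, -2.05 ± 0.04 and -2.40 ± 0.08 in the same order. They share the WT libraries.

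Between mutants the differences were smaller. P643A responded more than P631A by 0.81 ± 0.10 (95% interval 0.59 to 1.02, adjusted p = 9.13e-05), with 0.512% of the tested genes called. P643A responded more than W718E by 0.47 ± 0.09 (adjusted p = 0.0199), with 0.233% called. That call was lost without W718E vehicle replicate 1, without P643A vehicle replicate 1 or 3, or without any of the 3 Dex libraries of P643A (adjusted p 0.0511 to 0.0863). W718S/Y722S responded more than P631A by 0.49 ± 0.11 (adjusted p = 0.0275), with 0.536% called. That call was lost in 13 of 23 alternatives (adjusted p up to 0.209). They include leaving out replicate 2 or 3 of either P631A group, W718S/Y722S vehicle replicate 1 or 5, or any of W718S/Y722S Dex replicates 2 to 5.

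The other pairs did not pass the threshold. W718E and P631A differed by 0.33 ± 0.14 (95% interval 0.05 to 0.62, adjusted p = 0.971), with 0.00776% of the tested genes called. W718S/Y722S and W718E differed by 0.16 ± 0.10 (95% interval -0.04 to 0.36, adjusted p = 0.652), with 0.274% called. W718S/Y722S and P643A differed by -0.31 ± 0.07 (95% interval -0.46 to -0.17, adjusted p = 0.0616), with 0.141% called. The last was called without W718S/Y722S Dex replicate 1 (-0.26, adjusted p = 0.000688), 2 (-0.34, adjusted p = 0.0412) or 3 (-0.34, adjusted p = 0.0279). A p above the threshold does not show that these lines responded alike.

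**Figure D3:**
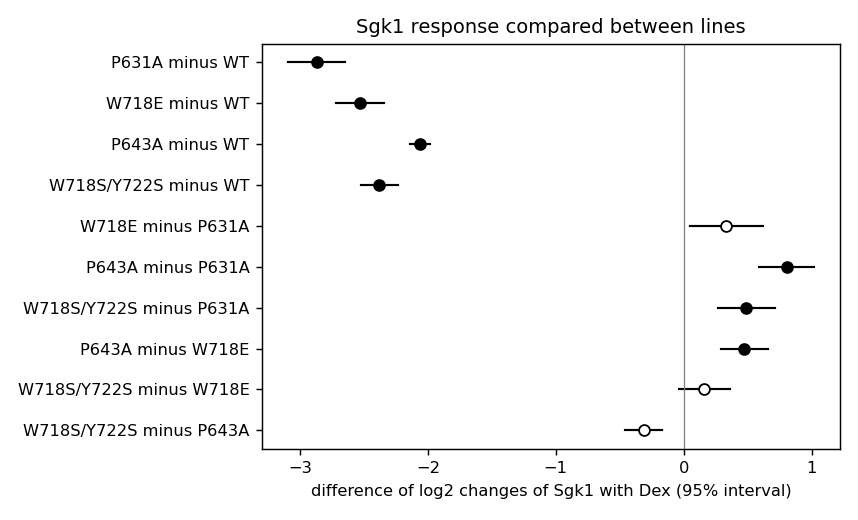
Difference of the log2 changes of Sgk1 with Dex between lines, for all 10 pairs, with 95% intervals. Filled points were called at an adjusted p under 0.05, and the 4 differences from WT, between -2.87 and -2.06, lie far from 0 while those between mutants lie between -0.31 and 0.81.

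On a scale set over all 34 libraries, Sgk1 without hormone was lowest in WT. Levels across lines are descriptions with no test, because each table was normalised on its own, and in bulk RNA a higher level per cell and a change in which cells were sampled cannot be told apart. The vehicle means were 882.1 ± 9.4 in WT, 1366.0 ± 31.4 in W718E (154.9% of WT) and 1845.8 ± 93.6 in P631A (209.3%). They were 2585.3 ± 75.5 in P643A (293.1%) and 2743.6 ± 86.4 in W718S/Y722S (311.0%). The libraries of these last 2 lines overlapped, at 2524.9 to 2670.0 and 2616.1 to 2826.0, and no other neighbours in this order did. With the size factors of each table the order of the top pair was reversed, at 307.7% for P643A and 245.9% for W718S/Y722S. Because WT also stood apart in Rn45s and in the leukocyte and endothelial sums, these levels are given beside them, and their part in the difference was not tested.

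With Dex the order of the lines changed. WT had the highest mean, 13564.1 ± 393.2, followed by P643A with 9525.9 ± 61.5 (70.2% of WT) and W718S/Y722S with 8166.6 ± 702.8 (60.2%). P631A had 3932.3 ± 672.7 (29%) and W718E 3661.2 ± 507.4 (27%), and the libraries of these 2 lines overlapped. The mean rise over vehicle was 12682.0 ± 227.1 reads (SE) in WT and 6940.6 ± 56.2 in P643A, 54.7% of that of WT. It was 5423.0 ± 316.6 in W718S/Y722S (42.8%), 2295.2 ± 293.5 in W718E (18.1%) and 2086.5 ± 392.1 in P631A (16.5%). Per kilobase of transcript, Sgk1 in WT moved from rank 4623 with vehicle to rank 152 with Dex among 12695 genes.

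Sgk3, the sister kinase that is recruited to endosomes, showed no called change in any line. In WT it was 579.0 to 652.7 with vehicle (625.3 ± 40.3, n = 3) and 670.6 to 697.7 with Dex (683.2 ± 13.7, n = 3). The groups did not overlap, as in 21.3% of the tested genes in WT, and the log2 change of 0.13 ± 0.05 did not pass (adjusted p = 0.209). In the mutants the change lay between -0.02 and 0.09, and the groups overlapped. Sgk3 without hormone was at 60.8 to 75.6% of WT in the 4 mutant lines. It lies at chr1:9798130-9902568 (mm10, plus strand).

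The ligase gene Nedd4l encodes the SGK1 substrate that marks ENaC for removal, and lies on chromosome 18 (mm10). In WT its vehicle libraries had 2035.6, 2014.6 and 2006.8 (2019.0 ± 14.9, n = 3) and its Dex libraries 2195.3, 2232.3 and 2164.2 (2197.3 ± 34.1, n = 3). All 3 Dex libraries were above all vehicle libraries. The log2 change of 0.12 ± 0.03 was called (adjusted p = 0.0179), and was lost without Dex replicate 2 (0.105) or without vehicle replicate 1 (0.0523), 2 (0.0669) or 3 (0.0883). With like libraries summed it was 0.12 ± 0.03 (adjusted p = 0.046). In the mutants the change lay between -0.03 and 0.05, with no call, and none of the 10 differences between lines was called. Its vehicle level was 48% of WT in P643A, 54.4% in P631A, 64% in W718E and 74.6% in W718S/Y722S.

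Nedd4, the founding member of the same ligase family, lies at chr9:72662331-72749850 (mm10, plus strand). It was among the more abundant transcripts, with 40223.5 ± 642.9 reads in WT with vehicle and 40512.3 ± 419.4 with Dex (n = 3 each). The log2 change there was 0.01 ± 0.03 (adjusted p = 0.911). In W718S/Y722S it was 20500.1 to 21583.4 with vehicle (median 20792.2) and 17696.7 to 20426.7 with Dex (median 20130.0). Every Dex library lay below every vehicle library, and groups did not overlap in 6.29% of the tested genes of that line. The lowest Dex library was replicate 1, which stood apart. The log2 change of -0.09 ± 0.04 was not called (adjusted p = 0.189), nor was the -0.06 ± 0.02 without replicate 1 (adjusted p = 0.208). Without hormone Nedd4 was at 64.8 to 69.4% of WT in the 4 mutant lines.

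Ndrg1 encodes the substrate used to read SGK activity, and lies at chr15:66929318-66969641 (mm10, minus strand). In P643A its vehicle libraries had 6672.6, 7110.2 and 6906.3 (6896.4 ± 219.0, n = 3) and its Dex libraries 6320.1, 6180.5 and 6334.3 (6278.3 ± 85, n = 3). It fell, with a log2 change of -0.14 ± 0.03 (adjusted p = 0.00212), and the groups did not overlap. In W718S/Y722S the vehicle libraries had 4486.4, 3993.9, 4019.0, 4136.5 and 4492.0 (4225.6 ± 246.6, n = 5) and the Dex libraries 3668.1, 3741.0, 3852.6, 3494.0 and 3578.3 (3666.8 ± 139.4, n = 5). The log2 change was -0.20 ± 0.04 (adjusted p = 0.00279), again with no overlap, and it was -0.20 ± 0.04 without Dex replicate 1 and -0.22 ± 0.05 with like libraries summed. In the other 3 lines the groups overlapped. The changes were -0.05 ± 0.03 in WT (adjusted p = 0.357), -0.10 ± 0.06 in P631A and 0.05 ± 0.07 in W718E. None of the 10 differences between lines was called. Its vehicle level was 50.9% of WT in W718E, 60.6% in W718S/Y722S, 74.5% in P643A and 75.8% in P631A.

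Atp1b1, the beta subunit that carries the pump to the membrane, was low in every library. It ranged from 34.1 to 75.3 reads on the scale of all libraries, with as few as 27 reads in 1 library, and its vehicle level was 84 to 124.1% of WT. The log2 changes with Dex lay between -0.10 and 0.03 with SE of 0.15 to 0.18, so a change of this size was not detectable at this depth. It lies at chr1:164437099-164458355 (mm10, minus strand) and overlaps Nme7 on the other strand. The authors' counting is recorded with no strand option, so reads of overlapping genes cannot be told apart. The same holds for the genes that GENCODE vM21 annotates over Ndrg1, Nedd4l, Sgk3 and Nedd4, and it has no other gene over Sgk1 or Aqp5.

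Aqp5, a water channel of glands, airway and cornea, lies at chr15:99591028-99594829 (mm10, plus strand). It was abundant, at rank 61 per kilobase among 12695 genes in WT with vehicle, and fell with Dex in 3 lines. In WT the vehicle libraries had 19307.4, 18141.8 and 17931.9 (18460.4 ± 741.0, n = 3) and the Dex libraries 13682.9, 13660.6 and 14164.3 (13835.9 ± 284.6, n = 3). The log2 change was -0.42 ± 0.03 (adjusted p = 1.11e-08), with every Dex library below every vehicle library, and it was -0.42 ± 0.03 with like libraries summed. In P643A the vehicle libraries had 9738.3, 9560.6 and 10282.7 (9860.5 ± 376.3, n = 3) and the Dex libraries 8446.8, 8421.1 and 8402.5 (8423.5 ± 22.3, n = 3). It fell there too, with a log2 change of -0.23 ± 0.03 (adjusted p = 1.57e-06). As in WT the groups did not overlap.

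In W718S/Y722S, Aqp5 was 11354.2, 10833.1, 10667.2, 11541.9 and 10818.9 with vehicle (11043.1 ± 381.2, n = 5) and 8868.9, 9441.4, 9331.7, 9754.6 and 9628.1 with Dex (9405.0 ± 341.4, n = 5). The log2 change was -0.23 ± 0.03 (adjusted p = 0.000101), with no overlap. It was -0.21 ± 0.03 without Dex replicate 1 and -0.25 ± 0.04 with like libraries summed. In P631A the vehicle libraries had 14318.8, 11924.4 and 13012.1 (13085.1 ± 1198.9, n = 3) and the Dex libraries 10998.3, 12511.1 and 11966.1 (11825.2 ± 766.2, n = 3). These groups overlapped, and the change of -0.14 ± 0.06 was not called (adjusted p = 0.877).

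In W718E, Aqp5 was 20999.5, 16956.4 and 25914.4 with vehicle (21290.1 ± 4486.1, n = 3) and 19141.1, 15273.5 and 22940.7 with Dex (19118.4 ± 3833.7, n = 3). This was the widest spread of Aqp5 in any line. The groups overlapped through most of their range, and the change of -0.15 ± 0.15 was not called (adjusted p = 0.942). Dex was nevertheless below vehicle for each replicate number. With the replicate number as a block in limma, the change was called (-0.15 ± 0.02, adjusted p = 1.19e-05). No label says that the numbers pair samples.

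The response of Aqp5 was weaker than in WT in P643A, by 0.19 ± 0.04 on the log2 scale (95% interval 0.10 to 0.28, adjusted p = 0.0158). The call was lost without WT vehicle replicate 1 (0.0785), WT Dex replicate 2 (0.0538), or P643A vehicle replicate 1 (0.0536) or 2 (0.0522), and kept with like libraries summed (0.0247). The difference from WT was 0.18 ± 0.05 in W718S/Y722S (adjusted p = 0.0594), 0.27 ± 0.08 in P631A (adjusted p = 0.0997) and 0.26 ± 0.17 in W718E (adjusted p = 0.753), with no call. That of W718S/Y722S was called without its Dex replicate 1 (0.20, adjusted p = 0.0035) or its vehicle replicate 4 (0.20, adjusted p = 0.0316). It was also called in limma with scaling by total counts without Rn45s (0.19, adjusted p = 0.0379) and with precision weights (voom, 0.18, adjusted p = 0.0338). On the log2 values as deposited it was called too (0.16, adjusted p = 0.0186). That of P631A was called without its replicate 1 of vehicle (0.34, adjusted p = 0.00767) or of Dex (0.32, adjusted p = 0.013), and on the log2 values as deposited (0.24, adjusted p = 0.008). That of W718E was called with the replicate number as a block (0.26 ± 0.04, adjusted p = 4.62e-05). Of the 10 pairs of lines, that of P643A and WT was the only one called for Aqp5 in the main fit, and no pair was called for Sgk3, Nedd4 or Atp1b1. The estimate in P643A was no larger than those in P631A and W718E, so the call does not set P643A apart from the other mutants. Without hormone Aqp5 was at 50.9% of WT in P643A, 67% in P631A, 75.7% in W718S/Y722S and 116.7% in W718E.

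**Figure D4:**
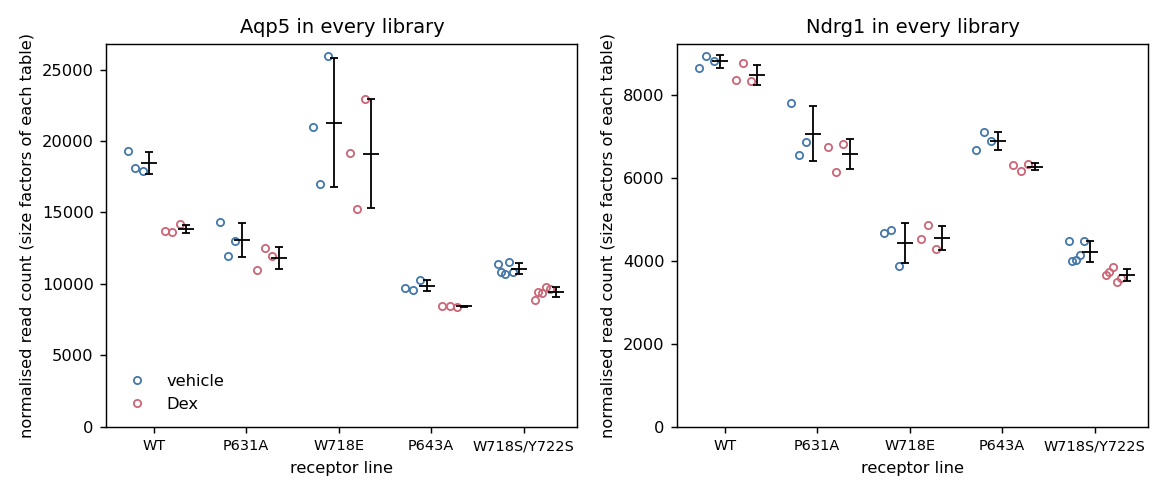
Aqp5 and Ndrg1 in every library, as read counts normalised within the table of each line. Open circles are libraries with vehicle or Dex, and black bars are the mean ± SD of each group. The Dex libraries of Aqp5 lie below its vehicle libraries in WT, P643A and W718S/Y722S, and those of Ndrg1 in P643A and W718S/Y722S, while the W718E libraries of Aqp5 run from 15273.5 to 25914.4.

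Without hormone, Sgk1 and the other genes lay on different sides of WT. Sgk1 was above WT in all 4 mutant lines, while Sgk3, Nedd4l, Nedd4 and Ndrg1 were below it in all 4, with every mutant mean at or under 75.8% of WT. Aqp5 was below WT in 3 lines and above it in W718E, and Atp1b1 lay on either side. For all genes but Atp1b1 the side was kept with both other scalings. Every one of these comparisons uses the same WT vehicle libraries. Lying on the same side of WT in all 4 lines was not particular to the members. Among further pathway genes, Foxo1, Foxo3, Foxo4 and Ndfip1 were below WT in all 4, and Usp10, Mlst8 and Fxyd5 above it. The share over all genes was not counted. WT stood apart from the mutants in Rn45s and in the leukocyte and endothelial sums in the same libraries, and their part in these levels was not tested.

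**Figure D5:**
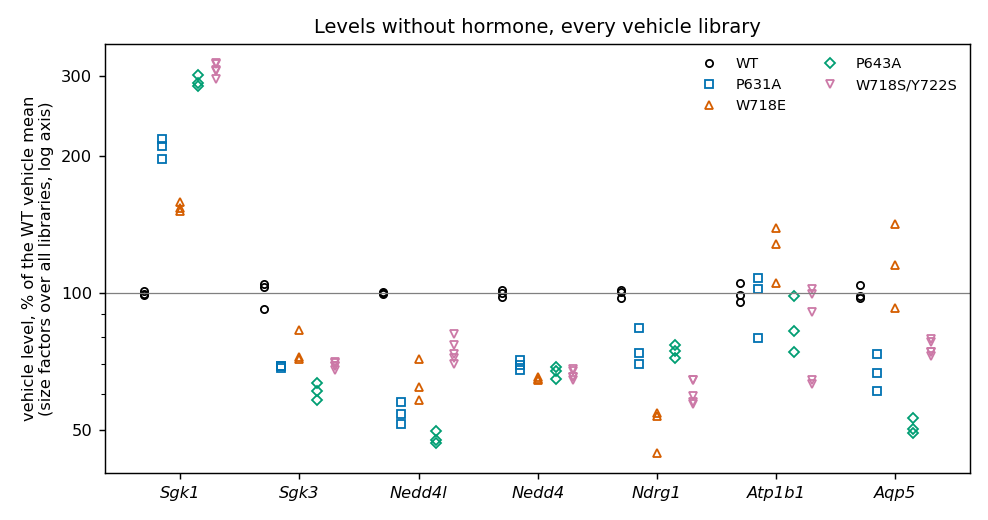
Level of each gene in every vehicle library, as a percent of the WT vehicle mean on a log axis, from read counts normalised over all 34 libraries. Symbols mark the lines. Sgk1 lies above 100% in every mutant library, with means up to 311.0%, and Nedd4 lies at 64.8 to 69.4% by group mean.

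Further genes of the pathway were taken from 8 lists, 75 genes in all, which were chosen with earlier results of these data known. In WT 5 of the 47 tested rose and 1 fell, and in P643A 4 of 47 rose and 2 fell, which is 12.8% of the tested list genes in each, beside 6.71% and 4.61% of all tested genes. In W718S/Y722S 2 of 46 rose and 1 fell, or 6.52%, near the 4.67% of all tested genes. In P631A and W718E 1 of 49 rose, or 2.04%, beside 0.219% and 0.512% of all tested genes. Among ENaC and its partners only 2 of 5 genes could be tested. The channel subunits Scnn1a and Scnn1b stood at 7.55 and 5.54 reads in WT with vehicle and Scnn1g at 0 in every library, so few or no reads came from the channel through which SGK1 is best known. Tsc22d3, which encodes GILZ, a glucocorticoid-induced protein reported to promote ENaC activity, rose in all 5 lines. Its log2 change was 2.55 ± 0.04 in WT, from 720.9 ± 33.1 to 4216.5 ± 135.3 reads, and 2.12 ± 0.04 in P643A. It was 1.73 ± 0.07 in W718S/Y722S, 1.28 ± 0.05 in W718E and 1.21 ± 0.06 in P631A, the same order of the lines as for Sgk1. The last 2 lines differed by 0.07 ± 0.09 (adjusted p = 0.972). By the same limma contrast, W718S/Y722S was not separated from P643A (adjusted p = 0.12) or from W718E (adjusted p = 0.058). None of these neighbouring pairs was called for Sgk1 either, so the order among the mutants is one of estimates. Without Dex replicate 1 the change in W718S/Y722S was 1.79 ± 0.05, and with like libraries summed it was 1.68 ± 0.08 there and 2.53 ± 0.04 in WT.

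Of the 5 tested activators of SGK in WT, such as Pdpk1 and the mTORC2 subunit Rictor, none was called there or in any mutant line by limma. At an unadjusted p under 0.05 there were 2 in WT, 1 in P643A, 2 in W718S/Y722S and 0 in the other lines. Among other SGK substrates, the forkhead factor genes Foxo3 and Foxo1 rose in WT and P643A. Foxo3 went from 1357.1 ± 41.2 to 2159.3 ± 15.5 in WT (log2 change 0.67 ± 0.03, adjusted p = 6.57e-11) and changed by 0.34 ± 0.05 in P643A. Foxo1 changed by 0.44 ± 0.04 in WT and 0.27 ± 0.04 in P643A. In W718S/Y722S Foxo3 changed by 0.17 ± 0.05 (adjusted p = 0.0546), which was called without Dex replicate 1 (0.0301) or vehicle replicate 2 (0.0277).

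Of the 12 genes for HECT ligases and their partners, the deubiquitinase gene Usp2, known to act on ENaC, rose in WT (0.67 ± 0.09, adjusted p = 3.9e-05). In W718S/Y722S it changed by 0.30 ± 0.09 (adjusted p = 0.0842), which was called without Dex replicate 1 (0.34, adjusted p = 0.0125). Smurf1, a ligase of the same HECT class, fell in WT (-0.22 ± 0.03) and P643A (-0.16 ± 0.03). Wnk1, a kinase that controls chloride transport, rose in P643A (0.11 ± 0.03, adjusted p = 0.0106) and W718S/Y722S (0.15 ± 0.04, adjusted p = 0.015). The first call was lost without P643A vehicle replicate 3 (0.0963) or Dex replicate 3 (0.0915). The second was lost without W718S/Y722S vehicle replicate 1 (0.0516) or Dex replicate 5 (0.0519), or with like libraries summed (0.107).

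Of the osmotic genes, Slc5a3, a myo-inositol transporter, fell in P643A (-0.20 ± 0.03, adjusted p = 7.61e-05) and W718S/Y722S (-0.25 ± 0.03, adjusted p = 6.27e-05). In WT it changed by -0.13 ± 0.05 (adjusted p = 0.182), and by -0.22 without Dex replicate 1 (adjusted p = 3.96e-07). Nfat5, the factor that responds to high tonicity, rose in WT (0.20 ± 0.05, adjusted p = 0.0125). That call was lost without vehicle replicate 2 (0.0972) or 3 (0.0633), and in W718S/Y722S a call appeared without Dex replicate 1 (0.15, adjusted p = 0.0318). With like libraries summed, the calls of Foxo3, Foxo1, Usp2, Smurf1 and Nfat5 in WT and of Slc5a3 in W718S/Y722S were kept (adjusted p from 3.23e-09 to 0.00895). No Na,K-ATPase or FXYD gene was called in any line by limma, with 1 of these at an unadjusted p under 0.05 in P643A and in W718S/Y722S. No other aquaporin was called either, and of the 3 tested, 2 had an unadjusted p under 0.05 in WT and 1 in W718E.

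The 5 genes whose log2 levels followed Sgk1 most closely over the 34 libraries, among 12192 genes, were B3galnt2 (Pearson r 0.944), Fkbp5 (0.94), Arl4d (0.922), Errfi1 (0.906) and Wee1 (0.904). The libraries share lines and treatments, so these values are descriptions. Over the 10 group means 3 of these were again among the 5 highest, with Gm16982 and Vegfd in place of the others. The log2 changes of the first 5 genes with Dex were smaller than that of Sgk1 in each line. All 5 were called higher in WT, P643A and W718S/Y722S, but only Errfi1 and Wee1 in W718E and only B3galnt2 in P631A. Fkbp5, which encodes a chaperone partner of GR, rose by 1.68 ± 0.04 in WT, 0.70 ± 0.03 in P643A and 0.62 ± 0.04 in W718S/Y722S. It changed by 0.36 ± 0.07 in W718E (adjusted p = 0.0554) and 0.17 ± 0.05 in P631A (adjusted p = 0.422), without a call. Tsc22d3 had an r of 0.822. Of the other members Nedd4l had 0.0601, Sgk3 -0.0152, Nedd4 -0.0726, Ndrg1 -0.0951, Atp1b1 -0.329 and Aqp5 -0.523.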

How the data were processed

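Total RNA of 34 libraries in 10 groups was sequenced. Per the submitters' processing notes, cutadapt, STAR 2.7.0f and HOMER 4.10.4 were used with mm10. Per the file headers, the authors counted exonic reads by RefSeq transcript, condensed these to 1 per gene, and wrote 1 table per line with HOMER's differential expression program, with no strand option recorded. The deposited library values are log2 values normalised within each table, in which each gene is shrunken toward its mean. Each table also holds the authors' log2 fold change with its p-value, raw and adjusted, with the test not given in the sources used here.

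Read counts were recovered from the deposited log2 values by inverting the shrinkage of each table. In genes with a mean of at least 1000 normalised reads, 98.86 to 99.67% of the recovered counts were whole to a tolerance of 0.1, and in lower genes at least 99.9%. The inversion was fitted so that counts came out whole, so these shares describe the fit and are not an independent check. Differences between the deposited library values are shrunken, while those of the recovered counts had a median gap of 0.000749 to 0.0011 to the authors' log2 fold changes in genes with a mean of at least 100. Dex and vehicle were compared by limma 3.58.1 in R 4.3.3 (lmFit, eBayes with a variance trend) on log2 of the normalised recovered count plus 1. A gene was tested if it had at least 10 normalised reads in a number of libraries equal to the smaller group, and tests were 2-sided. Tests were adjusted over all genes, and a call needed an adjusted p under 0.05. Lines were compared by the contrast of their changes. Levels across lines use median-of-ratios size factors over all libraries. Values were handled in Python 3.11.15 with numpy 2.4.6, pandas 2.3.3 and scipy 1.17.1. The fits were also run on simulated data made with the same shrinkage model and independent libraries. That run could not show an error in the model or the effect of near-identical libraries.

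The members, lists and tests were chosen with earlier results of these data known. The named genes were all 7 members, every list gene called in at least 1 line, and the 5 genes with the highest correlation to Sgk1. Alternatives were another pseudocount, scaling, filter and scale, a replicate block and leaving out each library. Precision models (voom) and summing near-identical libraries, those with a mean chi-square per gene under 2, were added after seeing the data. RefSeq tables gave start windows for Sgk1, Nedd4, Atp1b1 and Aqp5.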

Additional observations from a re-analysis of the deposited data

Results flagged for a closer look

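The response of Sgk1 to Dex differed from that of WT by -2.06 in P643A, -2.38 in W718S/Y722S, -2.53 in W718E and -2.87 in P631A on the log2 scale, each by a test of the difference itself. Between mutants the same test separated P643A from P631A (0.81), W718S/Y722S from P631A (0.49) and P643A from W718E (0.47). The second of these calls was lost in 13 of 23 alternatives and the third in 6 of 18. The response of Aqp5 in P643A differed from that in WT by 0.19, a call lost in 4 of 19 alternatives.

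A library far from the others of its group was looked for in the 14 sets of 5 libraries, 1 for each gene in each W718S/Y722S group, and chance marks about 1 in 20 such sets. It was found in 1, Nedd4 in W718S/Y722S Dex, where replicate 1 had 17696.7 reads.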

How the results depend on the processing

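Over the 7 genes there were 105 log2 changes and differences and 1883 alternative values. Of these, 1839 stayed on their side of the threshold, 27 lost a call and 17 gained one. Most of the 105 were not called to begin with and had no call to lose, so the total does not measure how stable the calls were. Of the 27 losses, 19 were of Sgk1, all between mutants. Nedd4l in WT had 4, and Aqp5 in P643A minus WT had 4. Of called values 0 changed direction, while values near 0 that were not called could, such as Ndrg1 in W718E, which was 0.05 and ranged from -0.05 to 0.10. The rise of Sgk1 within each line kept its call in every alternative run. The log2 values as deposited gave 361 genes for W718E minus WT, 315 for P643A minus WT, 117 for W718S/Y722S minus P631A, 78 for P643A minus W718E and 95 for W718S/Y722S minus W718E. On that scale, Sgk1 differed by 0.38 between W718S/Y722S and W718E (adjusted p = 0.00377). That scale shrinks changes to a different degree in each table. With no filter on low values, Sgk1 in W718S/Y722S minus P631A was 0.49 (adjusted p = 0.062), and 21 genes were called for W718S/Y722S minus W718E. Scaling by total counts without Rn45s gave -0.32 for Sgk1 in W718S/Y722S minus P643A (adjusted p = 0.045). It put the vehicle level of Sgk1 at 163.5% of WT in W718E, 224.1% in P631A, 310.4% in P643A and 326.3% in W718S/Y722S. The size factors of each table gave 221.6% in P631A, 307.7% in P643A and 245.9% in W718S/Y722S. With like libraries summed, 269 genes were called in W718S/Y722S, 126 for its difference from WT, 38 from P631A and 14 from W718E. Sgk1 in W718S/Y722S minus P631A was then 0.46 (adjusted p = 0.209). The cause of these shifts was not tested.

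In no line did every pair of same-numbered vehicle and Dex libraries correlate above 0.1, and the numbers were not taken to pair samples. Each vehicle library of P643A nevertheless correlated best with the Dex library of its own number, as did W718E replicates 2 and 3. So did replicate 1 of WT and of W718S/Y722S, and no other library did. Whether some lines were paired cannot be settled from these values. The correlations ran from -0.416 in P631A to 0.446 in W718E, where replicate 2 had 0.369 and replicate 1 had 0.029. With a replicate block, 10 genes were called in P631A and 268 in W718E, where 2 members were called, Aqp5 among them (-0.15, adjusted p = 1.19e-05). The difference of Aqp5 between W718E and WT was then called (0.26, adjusted p = 4.62e-05), as was that of Ndrg1 between P643A and W718E (-0.18, adjusted p = 0.0377). Slc5a3 was called in WT (-0.13, adjusted p = 0.004) and W718E (-0.28, adjusted p = 1.94e-09), and Wnk1 in WT (0.12, adjusted p = 0.0137) and W718E (0.09, adjusted p = 0.0361). The block gave 368 genes for W718E minus WT, 42 for P643A minus P631A, 45 for W718S/Y722S minus P631A and 104 for P643A minus W718E. Sgk1 was then 0.49 for W718S/Y722S minus P631A (adjusted p = 0.0506) and -0.31 for W718S/Y722S minus P643A (adjusted p = 0.0173).

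Leaving out 1 library at a time gave 13 to 47 genes in P631A, 29 to 79 in W718E and 413 to 988 in W718S/Y722S, with 988 without Dex replicate 1. The range was 153 to 348 for W718S/Y722S minus WT, 1 to 3 for W718E minus P631A, 43 to 120 for P643A minus P631A and 48 to 185 for W718S/Y722S minus P631A. It was 19 to 44 for P643A minus W718E, 17 to 146 for W718S/Y722S minus W718E and 7 to 126 for W718S/Y722S minus P643A. Sgk1 ranged over 0.40 to 0.63 for W718S/Y722S minus P631A, 0.36 to 0.56 for P643A minus W718E and -0.34 to -0.26 for W718S/Y722S minus P643A. Depth limits Atp1b1, with 27 reads in its lowest library.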

Other observations

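Of the 4 genes of the osmotic list, Slc5a3 and Akr1b3 had a wide spread in W718E, as Aqp5 did. They were looked at after the values of Aqp5 were seen. Slc5a3, the myo-inositol transporter, had 13748.7, 10254.6 and 23298.4 reads with vehicle and 12180.3, 8822.4 and 17196.6 with Dex, for replicates 1 to 3. Akr1b3, the aldose reductase that makes sorbitol, had 954.8, 853.3 and 1572.0 with vehicle and 952.5, 792.0 and 1049.8 with Dex. In each of these genes, as in Aqp5, replicate 3 was the highest and replicate 2 the lowest in both groups. Over all genes compared, replicates 2 and 3 were also the furthest pair of W718E libraries in both groups (mean chi-square per gene 8.84 and 7.97). The share of all genes with this order of replicates was not counted, so the order is not shown to be particular to these genes. The SD of log2 values within groups in W718E was 0.544 for Slc5a3, 0.362 for Akr1b3 and 0.3 for Aqp5, against 0.045 to 0.116 for Slc5a3 in the other lines. By this SD the 3 genes ranked 162, 578 and 895 from the widest of 12688 genes in W718E, so other genes spread more widely there. Nfat5 and the taurine transporter Slc6a6 had the same order of replicates in both W718E groups, with a narrower spread. The SD of Nfat5 was 0.139 in W718E and 0.138 in W718S/Y722S. That of Slc6a6 was 0.137 in W718E and 0.0213 to 0.105 in the other lines.

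Aqp1, a water channel of kidney and endothelium, stood apart between lines without hormone. On the scale of all libraries its vehicle level was 1820.0 ± 34 in WT (n = 3), with a lowest mutant library of 5311.8 in P643A. The highest mean was 6326.7 ± 288.0 in W718S/Y722S (n = 5). The endothelial marker sum, to which Pecam1 gave at most 7.95 reads, was higher in WT, and its part in the level of Aqp1 was not tested. The share of all genes that differ as much between WT and the mutants was not counted.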
